A study of Mus musculus with 14 samples.

Results

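The adult prostate cell preparations of this series fall into a pair of sets by the numbers that the study gave its samples, and the comparison described here is between those sets. Of the 14 arrays, 11 are of adult cells: 5 carry the study numbers 1 and 2 and are called low-numbered, and 6 carry the numbers 3 to 5 and are called high-numbered. The members were chosen by sample title: Sca-1Hi replicate 1, Sca-1Lo replicates 1 and 2 and Sca-1Neg replicates 1 and 2 are low-numbered, while Sca-1Hi replicates 2 and 3, Sca-1Lo replicates 3 and 4 and Sca-1Neg replicates 3 and 4 are high-numbered. The sets were proposed as early and late preparations, but neither the labels nor the study's methods say what the numbers stand for, so no order in time is implied.

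All 11 preparations came from normal adult C57BL males, given as 6 to 8 weeks old (C57BL/6 mice of 6 weeks in the methods), with no treatment or engineered allele named. Cells of the proximal prostatic ducts were sorted by surface Sca-1, an antigen of stem and progenitor cells, into a bright gate (Sca-1Hi), a medium to low gate (Sca-1Lo) and a gate lacking the antigen (Sca-1Neg). Each preparation was hybridized to a mouse Affymetrix array of its own after an RNA amplification of 2 cycles. The remaining 3 arrays hold fetal urogenital sinus epithelium (UGE) and belong to neither set. Where no label says that preparations came from separate animals, p-values measure only the spread between these samples.

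A sorted gate is rarely a single cell type. The prostate holds basal and luminal epithelial cells on a stroma of fibroblasts, smooth muscle, vessels and nerves, with resident leukocytes, and Sca-1 is also carried by endothelial cells, some fibroblasts and some leukocytes. Enzymatic release of cells from tissue is known to induce the immediate early genes, which encode transcription factors and feedback regulators switched on without new protein synthesis, together with the heat shock chaperones. Stromal, blood and stress genes are therefore described first, followed by the epithelial genes and the genes with the largest differences. In such bulk samples fewer cells of a type and less RNA per cell cannot be told apart.

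The array controls were read before the genes, since they do not depend on the cells. Poly-A controls are bacterial transcripts that a laboratory may add to the RNA before labelling, and hybridization controls are labelled transcripts added to the finished target. The signal of the *dap* poly-A control (3′ probe set) was 109 on the Sca-1Hi, 67.5 and 89.0 on the Sca-1Lo and 40.6 and 67.1 on the Sca-1Neg arrays of the low-numbered set. On the high-numbered arrays it was 12608 and 7983 for Sca-1Hi, 10422 and 6951 for Sca-1Lo and 7821 and 10325 for Sca-1Neg. All 24 poly-A control probe sets were lower on every low-numbered than on every high-numbered array, and so were all 18 hybridization control probe sets, whose median signal was 570 to 872 against 1447 to 2579. The controls thus split the adult arrays exactly as the study numbers do, so differences between cell preparations and differences in labelling or hybridization cannot be told apart in what follows.

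The log2 ratio of 3′ to 5′ signal of the *Gapdh* controls, a measure of RNA integrity and of shortening by amplification, was 1.66 to 3.08 on low-numbered and 2.69 to 3.48 on high-numbered arrays. That of *Actb* was 1.17 to 2.77 against 1.21 to 2.11. The upper quartile of the signals was 207 to 249 on low-numbered and 281 to 311 on high-numbered arrays, with medians of 67.5 to 76.3 and 67.6 to 80.8. Upper quartile and poly-A control did not overlap between the sets, and the *Gapdh* ratio overlapped only through Sca-1Hi replicate 1.

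**Figure D1:**
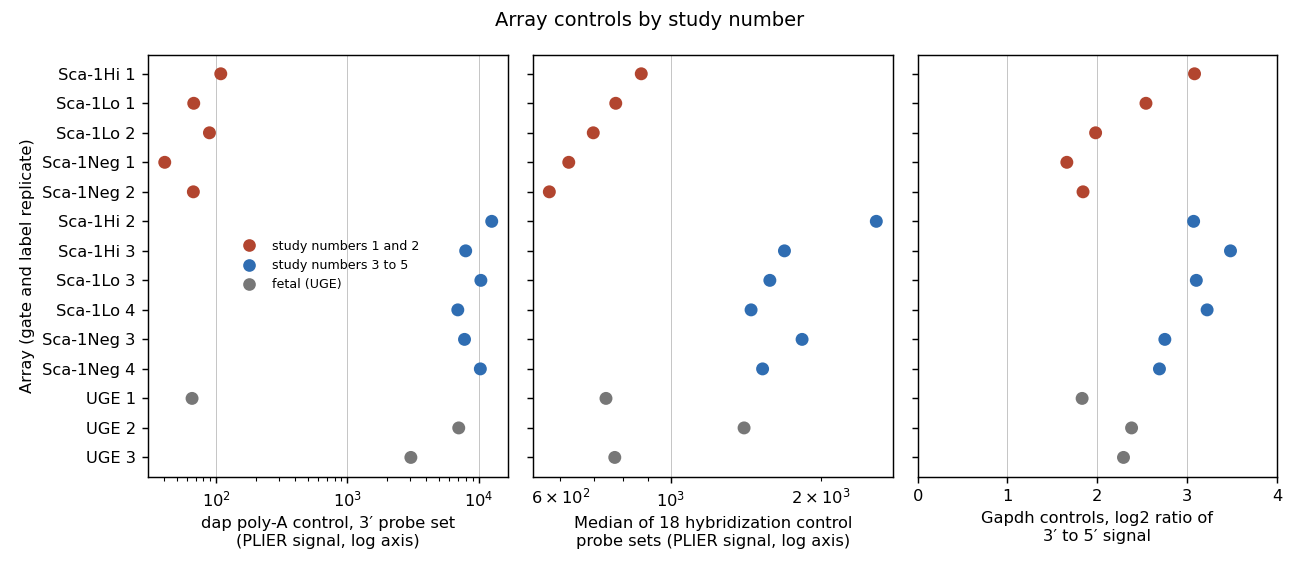
Control signals of the 14 arrays, 1 row per array. The left panel gives the *dap* 3′ poly-A control (40.6 to 109 on the 5 low-numbered arrays in red, 6951 to 12608 on the 6 high-numbered arrays in blue), the middle panel the median of 18 hybridization control probe sets, and the right panel the log2 ratio of 3′ to 5′ *Gapdh* control signal. Signal axes are logarithmic, and UGE arrays are grey.

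The sets differed broadly. With the gate as a covariate, 2277 of 40549 probe sets (5.62%) were higher and 5213 (12.9%) were lower on low-numbered arrays, where a call needed a log2 difference beyond 0.81 in size and a p under 0.05 once adjusted by Benjamini-Hochberg. By gene, taking for each the probe set with the highest mean signal, 927 of 17053 (5.44%) were higher and 1957 (11.5%) lower, and the median log2 difference of all genes was −0.18. Genes called higher were dim, with a median signal of 85.2 against 30.7, and genes called lower were brighter, with 268 against 603. All 5 low-numbered arrays lay above all 6 high-numbered arrays for 696 genes (4.08%) and below them for 1425 (8.36%).

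The share of calls in each direction followed the scaling. Of the called probe sets 30.4% were higher as deposited, 45.3% after quantile normalization and 77.6% with each array centred on its 75th percentile, while the median log2 difference of all probe sets moved from −0.17 to 0.01 and 0.20. With the *Gapdh* ratio as a covariate no probe set was called in limma in either direction, 4401 had an unadjusted p under 0.05, and the median standard error was 1.95 times larger. With the *Actb* ratio as a covariate the counts were 2621 and 5462. Without the 2 arrays of study number 2 the counts were 1024 higher and 1986 lower, and without those of study number 1 they were 1599 and 4085. With any 1 array left out they were 1803 to 2905 and 3602 to 6641. Groups of genes are given below by their counts beside the 5.44% and 11.5% of all genes, and by their median beside −0.18. Within the gates the median of all genes was −0.03 for Sca-1Hi, −0.10 for Sca-1Lo and −0.39 for Sca-1Neg. Counts under the other scalings stand beside other shares of all genes. These were 6.56% higher and 4.01% lower after quantile normalization, and 14.3% higher and 3.25% lower after centring. Every list's count fell to 0 with the *Gapdh* ratio in the fit. The median differences were then −1.64 for fibroblast (−1.96 without the ratio), −1.01 for immediate early (−1.12), −1.19 for basal (−1.64), 0.82 for macrophage (1.66) and 0.90 for class II genes (1.72).

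**Figure D2:**
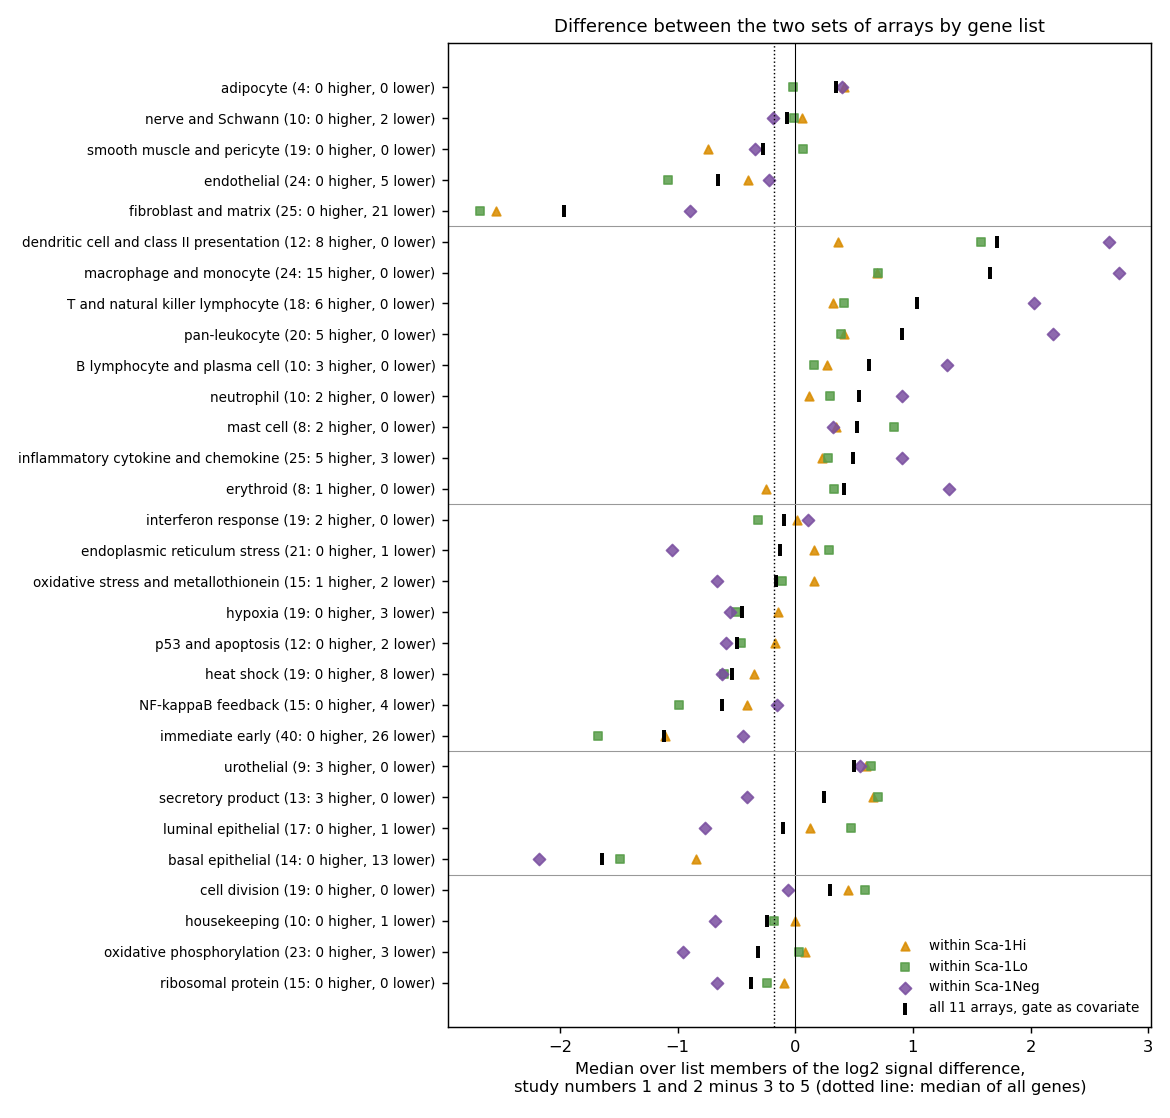
Median log2 signal difference (low-numbered minus high-numbered arrays) of 30 gene lists, with the number of members tested and called beside each name. Black bars stand for the fit over all 11 arrays with the gate as a covariate, symbols for the difference within each gate, and the dotted line for the median of all genes, −0.18. Within the gates the median of all genes was −0.03 (Sca-1Hi), −0.10 (Sca-1Lo) and −0.39 (Sca-1Neg). The fibroblast list lies at −1.96 and the class II list at 1.72.

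Fibroblast genes were lower in the low-numbered preparations. Of 25 genes of fibroblasts and their matrix, 21 fell and none rose, with a median difference of −1.96 on the log2 scale. It was −1.50 after quantile normalization and −1.60 after centring, with 9 and 13 lower, against medians of 0.08 and 0.18 for all genes. The median was −2.55 within Sca-1Hi, −2.68 within Sca-1Lo and −0.90 within Sca-1Neg, so it was largest in the gates that carry Sca-1, although the difference between Sca-1Lo and Sca-1Neg passed the test for no member. The medians of all genes in these gates were −0.03, −0.10 and −0.39. The summed signal of the list was 19870 to 33690 on low-numbered arrays and 34250 to 159700 on high-numbered arrays.

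*Dcn* encodes decorin, a proteoglycan of collagen fibres. Its signal was 2198 in Sca-1Hi, 6437 and 3793 in Sca-1Lo and 2287 and 2394 in Sca-1Neg of the low-numbered set, and 10195 and 14096, 14696 and 15573, and 8617 and 9871 in the same gates of the high-numbered set. No low-numbered array reached any high-numbered one, and the log2 difference was −1.96 ± 0.21 (SE, adjusted p = 0.00154). *Mmp2*, a matrix metalloproteinase, was also separated, at 324, 689 and 439, and 224 and 362 against 2024 and 3421, 6159 and 8311, and 785 and 1929. That difference was −2.94 ± 0.35 (adjusted p = 0.00173).

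*Pdgfra*, the platelet-derived growth factor receptor that marks many fibroblasts, read 175 in Sca-1Hi, 368 and 212 in Sca-1Lo and 92.7 and 143 in Sca-1Neg of the low-numbered set. On high-numbered arrays it read 421 and 2488, 2945 and 5700, and 269 and 599. Within each gate the sets did not overlap (−2.77 ± 0.51, adjusted p = 0.00502), but its other 2 probe sets, at −1.65 and −0.51, were not called. The interstitial collagens did overlap in Sca-1Neg. *Col3a1* was 3990 and 3828 there on low-numbered arrays and 2407 and 9207 on high-numbered ones, and in Sca-1Lo it was 3017 and 1831 against 11043 and 12451 (−1.64 ± 0.46 over all gates, adjusted p = 0.0247). Log2 differences were −2.09 for *Col1a1*, −2.82 for *Dpt* (dermatopontin, which binds decorin) and −2.73 for *Lum* (lumican, another collagen proteoglycan).

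The count of 21 moved with single arrays, while the median stayed between −2.52 and −1.74 with any array left out. The count was 12 without Sca-1Hi replicate 1, Sca-1Lo replicate 2, Sca-1Lo replicate 4 or Sca-1Neg replicate 4, 13 without Sca-1Lo replicate 3, 3 without study number 1 and 8 without study number 2, with medians of −1.97 and −1.90 in the last 2 fits. Over all probe sets 4085 and 1986 of 40549 were lower in those 2 fits. The fibroblast count was 22 in the Sca-1Hi and Sca-1Lo arrays alone, where 12.2% of all genes were lower.

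Smooth muscle did not follow the fibroblasts. None of 19 smooth muscle and pericyte genes was called, and the median difference was −0.27, turning to 0.20 after quantile normalization and 0.09 after centring. *Acta2*, smooth muscle actin, was 5385, 11168 and 7620, and 11174 and 10630 on low-numbered arrays and 6014 and 12128, 7151 and 11815, and 12046 and 13283 on high-numbered ones, so the sets overlapped in Sca-1Lo (−0.24 ± 0.24, adjusted p = 0.457). *Myh11*, smooth muscle myosin heavy chain, varied within sets more than between them, from 439 to 7107 and from 432 to 13903. *Rgs5*, a pericyte marker, read 22391 on Sca-1Neg replicate 4 and at most 4517 on any other adult array. With the 4 Sca-1Neg arrays left out, 2 smooth muscle members were higher and 2 lower.

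Endothelial genes shifted down by less. Of 24 members 5 fell, with a median of −0.66 (−0.25 after quantile normalization and −0.30 after centring, with 1 and 0 lower). *Tie1*, an endothelial receptor kinase, was 364, 153 and 186, and 14.6 and 23.9 on low-numbered arrays against 580 and 707, 369 and 380, and 34.2 and 43.8 (−1.03 ± 0.18, adjusted p = 0.00422). The sets did not overlap within any gate, and in either set the gene was lowest in Sca-1Neg. *Cd34* fell by 1.24 on the log2 scale, and *Vwf* (von Willebrand factor) and *Robo4* gave −0.85 each. The defining markers *Kdr* (−0.71 ± 0.26, adjusted p = 0.0589), *Cdh5* (−0.49 ± 0.25) and *Pecam1* (0.14 ± 0.34) did not pass the test.

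The endothelial count changed with almost any array left out. It was 3 without Sca-1Lo replicate 1 or Sca-1Hi replicate 3, 2 without Sca-1Lo replicate 2, Sca-1Lo replicate 3 or Sca-1Neg replicate 1 and 1 without Sca-1Lo replicate 4. None was called without study number 1. It was 8, 10 and 12 without Sca-1Hi replicate 2, Sca-1Neg replicate 2 and Sca-1Neg replicate 3.

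Of 10 nerve and Schwann cell genes 2 fell, with a median of −0.07 that turned to 0.28 after quantile normalization and 0.30 after centring. *Prnp*, the prion protein, was 1290, 1478 and 1162, and 1567 and 1480 against 2061 and 4078, 5119 and 7223, and 1656 and 5933 (−1.51 ± 0.36, adjusted p = 0.0121). *Ngfr*, the low-affinity neurotrophin receptor, fell by 0.98, but its other 2 probe sets gave 0.39 and 0.77 and the mean of all of them was 0.06. *Sox10*, the defining Schwann cell factor, was 12534 on Sca-1Neg replicate 4 and 48.2 to 265 on the other 10 arrays. Without that array it was 1.14 higher in the low-numbered set (adjusted p = 0.0162). Of the adipocyte list 3 of 7 members on the array were below the signal minimum everywhere, and none of the other 4 was called.

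Blood cell genes ran the other way. Of 24 macrophage and monocyte genes 15 rose in the low-numbered preparations and none fell, and of 12 genes of dendritic cells and class II antigen presentation 8 rose and none fell. The median differences were 1.66 and 1.72 on the log2 scale. After quantile normalization they were 1.81 and 2.02, with 13 and 8 higher, and after centring 2.02 and 2.08, with 20 and 12 higher. The median of all genes was 0.08 and 0.18 under these scalings. Most of the macrophage difference lay in Sca-1Neg, with a median of 2.76 there against 0.69 in Sca-1Hi and 0.71 in Sca-1Lo. Class II genes differed by 2.66 in Sca-1Neg and 1.58 in Sca-1Lo. The summed macrophage signal was 23810 and 57850 in the low-numbered Sca-1Neg preparations, 2081 and 7692 in the high-numbered ones and at most 3185 in any other.

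*Mpeg1* encodes a pore-forming protein of macrophages. It was 17.7 in Sca-1Hi, 82.6 and 80.4 in Sca-1Lo and 873 and 1970 in Sca-1Neg of the low-numbered set, and 6.32 and 4.54, 15.2 and 5.60, and 23.9 and 246 in the high-numbered set. The sets stood apart in Sca-1Lo and Sca-1Neg, while all 3 Sca-1Hi arrays and the high-numbered Sca-1Lo arrays were below the signal minimum of 20. The fitted difference (3.15 ± 0.60, adjusted p = 0.00536) therefore rests in part on signals under that minimum. *Csf1r*, the receptor that macrophages need to survive, was 447, 476 and 523, and 8437 and 23762 against 365 and 294, 245 and 258, and 375 and 2724. Its difference was 1.91 ± 0.64 (adjusted p = 0.0448), and its other 2 probe sets were not called.

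The complement genes *C1qa* and *C1qb* rose by 2.14 and 2.39, which rests in part on signals under 20. *Ms4a7*, a macrophage surface protein, was 1394 and 4983 in low-numbered Sca-1Neg and between 42.3 and 86.9 on all other adult arrays. *Adgre1*, which encodes the F4/80 antigen, was 192 and 948 in low-numbered Sca-1Neg and 71.2 and 95.7 in high-numbered Sca-1Neg, and *Cd68* was 273 and 701 against 27.7 and 59.8. Neither of these defining markers passed the test (adjusted p = 0.0636 and 0.0599).

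Class II molecules present peptides to helper T cells. *H2-Ab1* was 218 in Sca-1Hi, 966 and 629 in Sca-1Lo and 3755 and 5231 in Sca-1Neg on low-numbered arrays, against 212 and 153, 144 and 130, and 260 and 1290. The Sca-1Hi values of the sets were close, and the sets stood apart in the other gates (2.11 ± 0.48, adjusted p = 0.0108). *H2-Eb1* rose by 2.59 and *H2-Aa* by 1.69. *Flt3*, a receptor of dendritic cell precursors, rose by 3.06, which rests in part on signals under 20. It was 98.4, 18.4 and 92.0, and 338 and 431 against 14.4 and 24.5, 8.58 and 15.6, and 15.9 and 12.8. *Itgax*, which encodes CD11c, did not pass (1.70 ± 0.68, adjusted p = 0.0806).

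The macrophage count was 8 without Sca-1Neg replicate 1 or Sca-1Neg replicate 2, 9 without Sca-1Neg replicate 4, 4 without study number 1 and 3 without study number 2. The class II count was 5 and 2 without those study numbers. In those fits 1599 and 1024 of all 40549 probe sets were higher. With all 4 Sca-1Neg arrays left out, 7 macrophage genes and 5 class II genes were called higher, where 7.22% of all genes were. That fit kept genes with a signal over 20 on any adult array, Sca-1Neg included. *Mpeg1* and *Clec7a*, for instance, were under 20 on all Sca-1Hi and on the high-numbered Sca-1Lo arrays. These counts alone therefore do not show an excess outside Sca-1Neg.

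Among 20 pan-leukocyte genes 5 rose, with a median of 0.90, and 13 rose after centring, where 14.3% of all genes did. *Ptprc*, which encodes CD45, was 12.3 in Sca-1Hi, 168 and 87.7 in Sca-1Lo and 1424 and 2619 in Sca-1Neg of the low-numbered set, and 14.6 and 2.92, 135 and 131, and 113 and 627 in the high-numbered set. It was under 20 in Sca-1Hi of either set, overlapped in Sca-1Lo, and did not pass the test (1.25 ± 0.64, adjusted p = 0.157). *Laptm5*, a lysosomal protein of leukocytes, rose by 1.70 and *Tyrobp*, the DAP12 signalling adaptor, by 1.93. Of 4 other probe sets of *Laptm5*, 3 were not called. *Cd52* had another pattern: 1815, 8162 and 5082, and 7375 and 6503 against 324 and 555, 1250 and 1384, and 5063 and 7324, so the sets stood apart in Sca-1Hi and Sca-1Lo and overlapped in Sca-1Neg. The pan-leukocyte count was 2 without Sca-1Hi replicate 2, Sca-1Neg replicate 1, Sca-1Neg replicate 2 or Sca-1Neg replicate 4, and 3 without any 1 of the 4 Sca-1Lo arrays.

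Lymphocyte genes followed with smaller numbers. Of 18 genes of T and natural killer cells 6 rose (11 after centring), with a median of 1.03, and the count was 3 without Sca-1Neg replicate 2. *Cd8a*, the co-receptor of cytotoxic T cells, was 152, 180 and 203, and 156 and 243 against 43.9 and 69.3, 78.4 and 71.0, and 102 and 64.1, with no overlap (1.35 ± 0.20, adjusted p = 0.00274). Its other 4 probe sets, from 0.57 to 1.04, were not called. *Cd3e*, part of the T cell receptor complex, rose by 0.87 (adjusted p = 0.0262), and *Cd3d* did not pass (0.48 ± 0.22). *Gzmb* (granzyme B) and *Klrd1* (the natural killer receptor CD94) rose by 2.01 and 2.07, and *Klrd1* was 954 and 1572 in low-numbered Sca-1Neg against 37.1 and 178. The *Klrd1* difference rests in part on signals under 20 in the other gates.

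Of 10 B lymphocyte genes 3 rose, *Cd22*, *Pax5* and *Ms4a1*, by 1.54, 1.21 and 1.09, with a list median of 0.63, and *Cd79a* did not pass (0.36 ± 0.30). None remained without Sca-1Lo replicate 2 or Sca-1Neg replicate 2, and 1 was called without Sca-1Hi replicate 1, Sca-1Hi replicate 3, Sca-1Lo replicate 3 or Sca-1Lo replicate 4. The other probe set of *Pax5* (0.08) was not called. Among 8 mast cell genes the IgE receptor chains *Fcer1a* and *Ms4a2* rose. *Fcer1a* was 62.4, 51.2 and 82.9, and 68.5 and 113 against 10.6 to 20.9, near or under the signal minimum. All 6 high-numbered arrays were below 20 for *Ms4a2*, which was at least 2.82-fold higher in the low-numbered set. For *Cd22*, *Fcer1a* and *Ms4a2*, as for *Flt3*, Sca-1Lo replicate 1 was the lowest of its set. The defining mast cell proteases *Mcpt4*, *Tpsb2* and *Cpa3* did not pass. Of 10 neutrophil genes *S100a9* and *Ltf* rose, by 2.29 and 1.10. Of 8 erythroid genes *Slc4a1*, the anion exchanger of red cells, rose by 1.07, but its other 2 probe sets (−0.38 and 1.72) were not called. The defining gene *Hba-a1* did not pass (−0.01), but its probe set read only 46.6 to 114 on the adult arrays, with 46.6 and 68.3 in low-numbered Sca-1Neg. Most of the list's signal there came from other members. The summed erythroid signal was 168200 and 207700 in low-numbered Sca-1Neg and 5640 and 48630 in high-numbered Sca-1Neg. On the other adult arrays it was at most 9867.

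Inflammatory mediators split. Of 25 cytokine and chemokine genes 5 rose (3 after quantile normalization and 12 after centring) and 3 fell. *Ccl4*, a chemokine made by activated macrophages and natural killer cells, was 55.9, 64.1 and 81.2, and 986 and 1440 on low-numbered arrays against 21.0 and 35.5, 28.4 and 27.7, and 69.5 and 204 (2.02 ± 0.42, adjusted p = 0.00729). *Ccl3* was 24921 and 31227 in low-numbered Sca-1Neg against 1583 and 3421, and 86.8 to 218 on all Sca-1Hi and Sca-1Lo arrays, and did not pass over the 3 gates (0.82 ± 0.71). *Il1a* rose by 2.03, in part on signals under 20, while *Il1b* (adjusted p = 0.0526) and *Tnf* (adjusted p = 0.0929) did not pass.

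*Cxcl10*, an interferon-induced chemokine, went the opposite way. It was 105, 367 and 146, and 219 and 243 on low-numbered arrays and 1637 and 994, 10662 and 6624, and 2053 and 579 on high-numbered ones, with no overlap (−3.68 ± 0.52, adjusted p = 0.00257). The count of 5 was 2 without Sca-1Lo replicate 2 or Sca-1Neg replicate 2 and 3 without Sca-1Lo replicate 4, and the count of 3 was 5 without Sca-1Neg replicate 3 or Sca-1Neg replicate 4. In the interferon response list 2 of 19 genes rose, the immunoproteasome subunits *Psmb8* and *Psmb9*, by 1.10 and 0.84, and the defining genes *Ifit1* (−0.18 ± 0.24) and *Irf7* (−0.10 ± 0.18) did not pass. The other probe set of *Psmb8* (0.30) was not called.

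**Figure D3:**
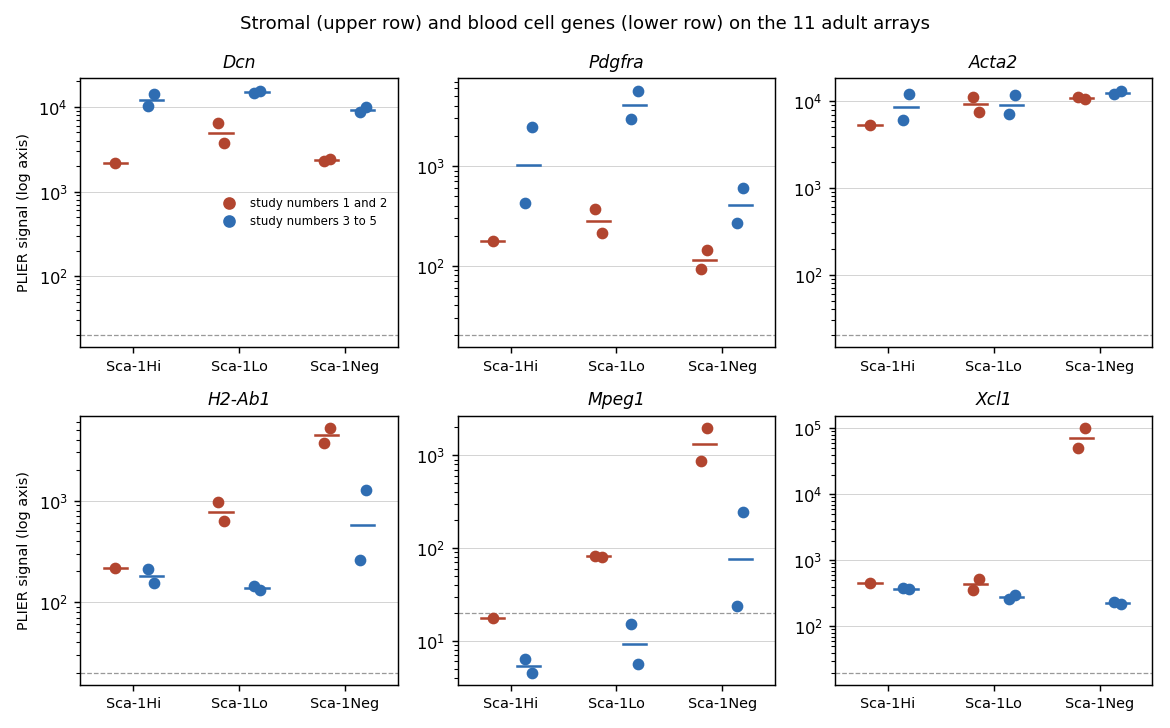
PLIER signals on a log axis of 6 genes on the 11 adult arrays, by gate. Points are arrays, red for low-numbered and blue for high-numbered, bars are the means of log2 signals of each set in each gate, and the dashed line is the signal minimum of 20. *Dcn* is lower on every low-numbered array, *Acta2* overlaps in Sca-1Lo, and *Xcl1* exceeds 521 only on the 2 low-numbered Sca-1Neg arrays.

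For a few blood cell genes the excess differed between gates. The difference between the sets in Sca-1Lo minus that in Sca-1Neg was called for 9 of 40549 probe sets (0.0222%), all of them larger in Sca-1Neg, and 6367 had an unadjusted p under 0.05. By gene 5 were called. *Xcl1*, lymphotactin, a chemokine of natural killer and cytotoxic T cells, was 49788 and 101432 in low-numbered Sca-1Neg and 215 to 521 on the other 9 arrays, so the contrast was −7.66 ± 0.51 (adjusted p = 0.00611). *Nkg7*, a granule protein of the same cells, was 3467 and 6863 there and 26.8 to 68.2 elsewhere (−6.17 ± 0.67, adjusted p = 0.038). *Klre1* (a natural killer receptor), *Cd209a* (a dendritic cell lectin) and *Hcls1* (a leukocyte actin-binding protein) gave −7.03, −6.51 and −6.31. In high-numbered Sca-1Neg *Cd209a* was 13.9 and 6.96 and *Hcls1* 9.93 and 22.3, so the sizes of their contrasts rest in part on signals under 20.

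The count of 9 depended on the arrays in the fit. It was 0 without Sca-1Lo replicate 2, Sca-1Lo replicate 3 or Sca-1Lo replicate 4, 1 without Sca-1Neg replicate 2, 3 without Sca-1Lo replicate 1, Sca-1Hi replicate 2 or Sca-1Hi replicate 3 and 4 without Sca-1Neg replicate 1. It was 102 without Sca-1Neg replicate 3 and 4831 without Sca-1Neg replicate 4, where a single high-numbered Sca-1Neg array is left.

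**Figure D4:**
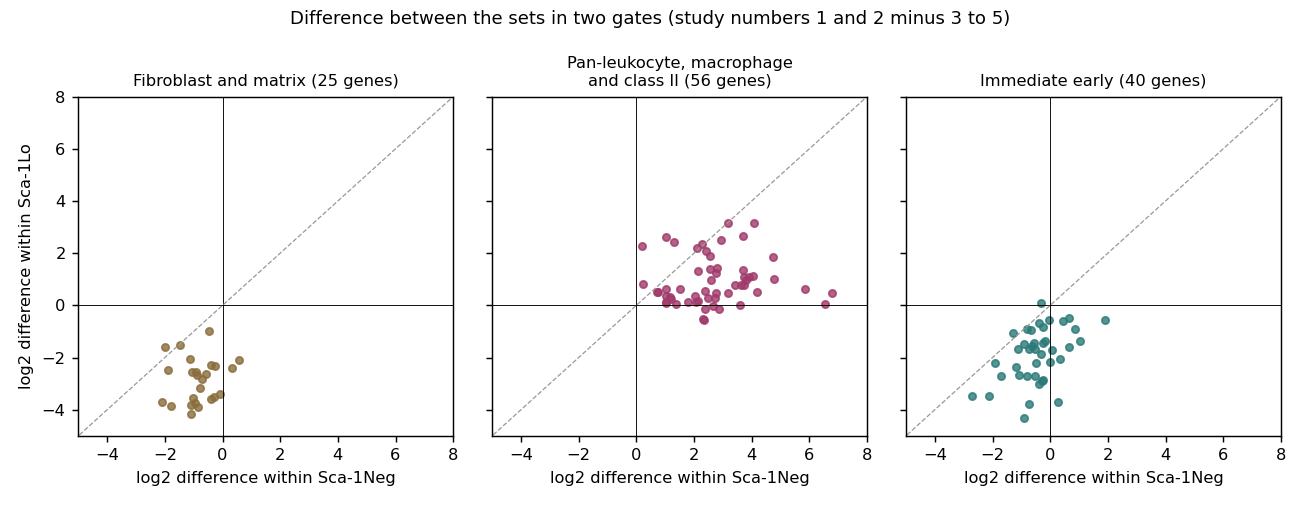
Log2 differences between the sets (low-numbered minus high-numbered) within Sca-1Lo against those within Sca-1Neg, 1 point per gene, for 25 fibroblast, 56 leukocyte and 40 immediate early genes. The dashed line marks equal differences. Fibroblast and immediate early genes lie mostly below 0 in Sca-1Lo, and leukocyte genes lie mostly to the right of 0 in Sca-1Neg.

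Immediate early genes were lower in the low-numbered preparations. Of 40 members 26 fell and none rose. That was the largest number of calls in any of the 30 lists, but this list was also the longest. The basal (13 of 14) and fibroblast (21 of 25) lists held larger shares. For the immediate early list the median difference was −1.12 (−0.57 after quantile normalization and −0.76 after centring, with 11 and 14 lower). It was −1.11 within Sca-1Hi, −1.68 within Sca-1Lo and −0.44 within Sca-1Neg, against −0.03, −0.10 and −0.39 for all genes. In Sca-1Neg the list thus lay close to all genes. The count was 19 to 29 with any array left out, 16 and 12 without study numbers 1 and 2 and 31 without the Sca-1Neg arrays. Without study numbers 1 and 2, 4085 and 1986 of all 40549 probe sets were lower. The summed signal was 41010 to 74530 on low-numbered and 70350 to 179200 on high-numbered arrays, and the genes were expressed in either set.

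*Arc*, a regulator of the synapse that is also induced at once by growth factors, was 818 in Sca-1Hi, 444 and 203 in Sca-1Lo and 97.7 and 48.7 in Sca-1Neg of the low-numbered set. In the high-numbered set it was 5791 and 3823, 4310 and 2560, and 654 and 317. The sets were apart in each gate, and the gate order was the same in either set (−2.95 ± 0.33, adjusted p = 0.00165). *Atf3*, a stress-induced transcription factor, was 3641, 2980 and 1724, and 2808 and 1803 against 14457 and 10295, 17601 and 12561, and 4862 and 3182 (−1.76 ± 0.34, adjusted p = 0.00559). Again no gate overlapped, with a narrower gap in Sca-1Neg.

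*Jun* and *Fos* encode partners in the AP-1 transcription factor. *Jun* read 5329, 6185 and 2616, and 3797 and 2707 against 11373 and 9727, 11665 and 10099, and 4598 and 4778 (−0.99 ± 0.25, adjusted p = 0.0168). *Fos* was high on every array, at 9274, 7828 and 5298, and 7014 and 5712 against 10310 and 11064, 9955 and 10484, and 7034 and 9977. Although it lay lower in each gate of the low-numbered set, it did not pass the test (−0.45 ± 0.18, adjusted p = 0.0816). *Egr1*, a zinc finger factor, fell by 1.08 with no overlap, and *Maff*, a small Maf factor, fell by 2.45.

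The orphan nuclear receptors *Nr4a2* and *Nr4a3* fell at their brightest probe sets (−2.79 and −2.73), but their other probe sets disagreed. Of 5 others of *Nr4a2*, 2 were lower, 2 were not called and 1 was higher, with differences from −1.89 to 0.83. Of 2 others of *Nr4a3*, 1 was not called and 1 was higher, from 0.47 to 2.28, and the mean of its probe sets differed by 0.01. Of the 107 called genes named here, 44 have several probe sets. These 2 held an opposite call among them, and 28 held at least 1 probe set that was not called.

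Because the immediate early genes moved together, the promoters of *Atf3* and *Jun* are shown, each from 250 bases before to 50 after the start of the gene (RefSeq, GRCm38.p6). *Atf3* lies on the minus strand at chr1:191183284-191183583 and *Jun* on the minus strand at chr4:95052173-95052472. Capitals mark matches to any of 4 motifs searched on both strands, which do not overlap here: the CArG box of serum response factor, the heat shock element GAANNTTC, the cyclic AMP response element TGACGTCA and the AP-1 sites TGAGTCA and TGACTCA.
Atf3: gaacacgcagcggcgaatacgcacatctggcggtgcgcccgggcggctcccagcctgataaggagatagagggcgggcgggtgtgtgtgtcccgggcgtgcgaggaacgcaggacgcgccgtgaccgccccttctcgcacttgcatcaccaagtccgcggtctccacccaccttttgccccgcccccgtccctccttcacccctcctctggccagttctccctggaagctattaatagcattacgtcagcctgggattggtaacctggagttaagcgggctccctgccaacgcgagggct
Jun: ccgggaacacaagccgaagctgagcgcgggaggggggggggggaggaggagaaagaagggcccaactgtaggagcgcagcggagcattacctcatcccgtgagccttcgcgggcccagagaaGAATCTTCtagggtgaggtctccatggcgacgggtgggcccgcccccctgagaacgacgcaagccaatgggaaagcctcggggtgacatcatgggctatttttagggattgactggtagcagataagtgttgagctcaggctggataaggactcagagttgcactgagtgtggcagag
The *Jun* promoter holds a heat shock element 128 to 121 bases before the start, and the window of *Atf3* holds none of these letters. The promoters of *Nr4a2*, *Nr4a3* and *Fos* were searched in the same way, are not shown, and hold none either. A CArG box was found in 1.63% of all 32851 promoters of this length, the heat shock element in 7.86%, the cyclic AMP response element in 1.79% and an AP-1 site in 5.20%. Of the 26 genes that fell, 20 have a promoter in the table, and 2, 2, 2 and 1 of them hold these motifs in the same order. Of the 14 other members 12 have one, with 1, 1, 2 and 0.

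Heat shock genes were lower to a smaller extent. Of 19 members 8 fell, with a median of −0.53, which was −0.07 after quantile normalization and −0.17 after centring, with 1 lower under each. *Dnajb1*, the HSP40 co-chaperone, was 1974, 2128 and 1261, and 1501 and 1171 against 8065 and 6358, 8290 and 6874, and 2764 and 2583, with no overlap (−1.67 ± 0.24, adjusted p = 0.00261). *Hspa1a*, the inducible HSP70, fell by 0.82. Its near-identical copy *Hspa1b* did not pass (−0.53 ± 0.21), and probes may not tell the copies apart. The count was 1 without study number 2, 1 without Sca-1Lo replicate 2, 2 without Sca-1Neg replicate 2 and 5 without Sca-1Hi replicate 1, Sca-1Lo replicate 3, Sca-1Lo replicate 4 or Sca-1Neg replicate 4.

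Other stress programmes gave few calls. Of 21 endoplasmic reticulum stress genes 1 fell, *Vldlr* (−1.26), and *Hspa5* (BiP, the main chaperone of that compartment), *Ddit3*, *Atf4* and *Trib3* did not pass. The median of this list was −0.13 and turned to 0.29 after quantile normalization and 0.23 after centring. Of 19 hypoxia genes 3 fell, *Adm* (adrenomedullin), *Kdm3a* and *Egln3*, with 5 lower without Sca-1Neg replicate 3 and 1 under either other scaling, and the list median of −0.45 turned to 0.04 after quantile normalization. *Vegfa*, *Bnip3* and *Car9* did not pass.

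In the oxidative stress list of 15 genes, *Gclm* and *Gclc*, the subunits of the enzyme that limits glutathione synthesis, fell (−1.01 and −0.87) with no overlap between the sets, but none was lower under either other scaling. *Hmox1*, heme oxygenase, rose, from 50.1 and 52.2, 34.1 and 43.9, and 46.0 and 32.4 on high-numbered arrays to 72.4, 56.2 and 97.9, and 73.2 and 96.5 on low-numbered ones (0.90 ± 0.21, adjusted p = 0.0117). The metallothioneins *Mt1* (0.11 ± 0.29) and *Mt2* (0.13 ± 0.32) did not pass. Of 12 p53 and apoptosis genes *Mdm2* and *Fas* fell (−1.02 and −0.81, and none was lower under either other scaling), and *Cdkn1a* (p21) did not pass. The other 2 probe sets of *Mdm2* (−0.37 and 0.45) were not called. Of 15 genes of NF-kappaB feedback 4 fell, *Tnfaip3*, *Relb*, *Icam1* and *Tnip1*, with differences of −1.40, −0.88, −0.87 and −0.81, and none was called after quantile normalization or centring, where the list median of −0.62 became −0.12 and −0.26. The other probe set of *Tnfaip3* gave 0.45. The count of 4 was 0 without Sca-1Lo replicate 2, 1 without Sca-1Lo replicate 4 and 2 without any 1 of Sca-1Hi replicates 1 to 3, Sca-1Lo replicates 1 and 3 or Sca-1Neg replicate 1.

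**Figure D5:**
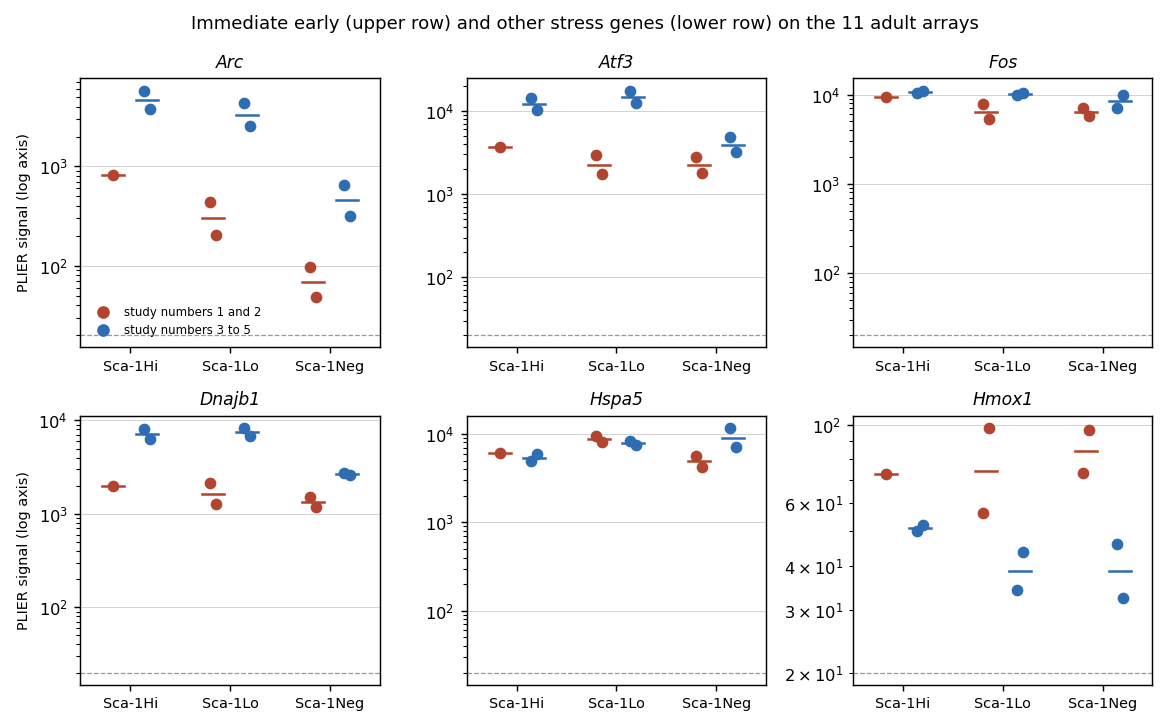
PLIER signals on a log axis of 6 stress genes on the 11 adult arrays, by gate, with points, bars and the dashed line at 20 as in the plot of stromal and blood genes. *Arc*, *Atf3* and *Dnajb1* are lower within each gate of the low-numbered set, *Fos* and *Hspa5* did not pass the test, and *Hmox1* is higher, with a lowest low-numbered value of 56.2 and a highest high-numbered value of 52.2.

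The epithelial identity of the preparations was checked with its markers. *Pbsn*, *Msmb* and *Tgm4*, secretory products of the adult prostate, were at 3636 or above on all 11 arrays and did not pass the test, and *Krt8* and *Krt18*, keratins of luminal cells, were at 1804 or above. Of 17 luminal genes 1 fell, *Cldn4*, a tight junction protein (−1.42). The luminal median of −0.11 turned to 0.39 after quantile normalization and 0.26 after centring.

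Basal cell genes were lower in the low-numbered set. Of 14 members 13 fell, with a median of −1.64 (−1.30 after quantile normalization and −1.27 after centring), and the count was 11 to 13 with any array left out and 11 and 7 without study numbers 1 and 2. *Trp63*, the p63 factor that basal cells need, was 888, 1235 and 739, and 141 and 104 against 2201 and 1839, 4313 and 3953, and 909 and 440 (−1.98 ± 0.27, adjusted p = 0.00233). Its other 3 probe sets ranged from −1.63 to 0.25. *Krt5*, a basal keratin, was 5874, 4468 and 2076, and 382 and 203 against 8478 and 9488, 7133 and 7025, and 2008 and 1070 (−1.51 ± 0.34, adjusted p = 0.0106). In either set both genes were lowest in Sca-1Neg, and within each gate the low-numbered arrays lay below. *Krt14*, *Krt17* and *Jag2*, a Notch ligand, gave −2.01, −2.38 and −2.05.

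Of 13 secretory product genes 3 rose, the seminal vesicle proteins *Svs3a* and *Svs6* and *Ceacam10*, by 2.22, 1.62 and 2.10. *Svs3a* was 22.6, 251 and 142, and 802 and 261 against 5.12 and 9.77, 6.86 and 18.4, and 157 and 489, so the sets overlapped in Sca-1Neg. The count was 1 without Sca-1Lo replicate 2 or Sca-1Lo replicate 3. Of 9 urothelial genes 3 rose, *Psca*, *Upk3a* and *Upk3b*, and *Upk1b* did not pass. All high-numbered arrays were under 20 for *Upk3a* and *Upk3b*, which were at least 1.62-fold and 1.11-fold higher.

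Lists not chosen for stroma, blood or stress give a scale for these values, although the housekeeping list shares *Tfrc* with the erythroid and *Pgk1* with the hypoxia list. None of 19 cell division genes was called, *Mki67* and *Top2a* among them, and none of 15 ribosomal protein genes. Of 23 oxidative phosphorylation genes 3 fell (5 without Sca-1Lo replicate 1, and 1 without Sca-1Neg replicate 2 or Sca-1Neg replicate 4), the bright *Cyc1*, *Uqcrc1* and *Atp5b*, with −1.05, −0.90 and −0.84, and none was lower under either other scaling. Of 10 housekeeping genes *Actb*, beta-actin, fell, at 5438, 7142 and 4601, and 6592 and 5922 against 11638 and 11828, 11131 and 11552, and 8505 and 12473 (−0.92 ± 0.18, adjusted p = 0.00625). The call was lost under both other scalings (−0.44 after quantile normalization and −0.55 after centring), and its other probe set (−0.74) was not called.

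The largest differences lay in genes that were dim in the high-numbered set. Of 730 genes called higher whose sets did not overlap within any gate, the order by log2 difference has no meaning where signals lie under 20, and such genes are given by a bound with those signals set to 20. *Mup3*, a major urinary protein of liver, was 96.6, 5.81 and 54.8, and 161 and 158 against under 20 on all high-numbered arrays, at least 3.85-fold higher. *Odf3*, of the sperm tail, was 362, 24.8 and 395, and 351 and 280 against under 20, at least 10.2-fold higher. *Boll*, a germ cell RNA-binding protein, was 920, 200 and 1839, and 1731 and 1801 against 41.4 to 64.2 (4.24 ± 0.51, adjusted p = 0.00187), but its other probe set (0.16) was not called. In all 3 genes Sca-1Lo replicate 1 was the lowest of its set.

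*Saa1* (an acute phase protein of liver), *Rnase2b* and *Asb14* were under 20 on every high-numbered array and at least 6.92-fold, 4.52-fold and 8.13-fold higher. *Glra1* (a glycine receptor of neurons), *Slco1b2* (a liver transporter), *Sec14l3* and *Gm33301* complete the 10, with differences of 3.78, 3.74, 3.69 and 3.67. Sca-1Lo replicate 1 was the lowest of its set for each of these 7 genes. The other probe sets of *Saa1* (0.23) and *Sec14l3* (−0.38 and −0.05) were not called. None of the 10 belongs to a list of blood or stromal genes used here.

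Of 1537 genes called lower whose sets did not overlap within any gate, the 10 with the largest differences held matrix, immediate early and chemokine genes named above: *Mmp2*, *Arc* and *Cxcl10*. *Aox3*, an aldehyde oxidase, came first, at 31.8, 38.9 and 45.2, and 10.7 and 6.51 against 347 and 368, 927 and 1246, and 35.2 and 261 (−3.95 ± 0.45, adjusted p = 0.00171). *Tnxb*, the matrix protein tenascin X, was 59.8 to 94.4 against 176 to 3126 (−3.75 ± 0.54, adjusted p = 0.00259). *Scara5*, *Stmn4* and *Pi16* gave −3.24, −2.95 and −2.88, but the other probe sets of *Scara5* (0.15) and *Pi16* (0.04) were not called. *Radil* and *Krtdap*, a keratinocyte differentiation protein, were under 20 on all low-numbered arrays and at least 3.88-fold and 1.43-fold lower.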

How the data were processed

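The deposited values were PLIER signal intensities, computed by the authors from 14 Affymetrix MOE430 2.0 arrays and used on the log2 scale with no added constant. The authors labelled 20 ng of RNA per preparation in an amplification of 2 cycles. Arrays have no counting depth, so their number limits the precision. The study's own sample numbers were tied to the arrays by matching signals over 1221 probe sets, with a largest difference of 1.1e-05.

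The split by study number, the members and the gene lists were chosen with earlier results of these data known. Of 45101 probe sets, 64 controls were left out and 40549 had a signal over 20 on at least 1 adult array. They were fitted in limma 3.58.1 (R 4.3.3; lmFit and eBayes) with gate and set as terms, and p-values were adjusted over all of them by the method of Benjamini and Hochberg. A called difference had an adjusted p under 0.05 and a log2 difference beyond 0.81 in size. Differences are low-numbered minus high-numbered, ± the standard error. The gate contrast was fitted as an interaction. Names came from the platform annotation, in which 34945 probe sets have 1 gene, 932 several and 9160 none. The probe set of *Ly6a*, which encodes Sca-1, is not analysed here.

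Named were up to 10 genes with the largest called difference in each direction and no overlap within any gate, up to 4 called members of each list, its defining markers, and 5 genes of the gate contrast. A fold marked "at least" sets signals under 20 to 20. The code was tested on simulated data. Alternatives covered filters, scalings, covariates, blocks, array weights, the methods' t-test and each array or study number left out. The fits without the Sca-1Neg arrays and with the *Actb* ratio were chosen after seeing the data. Fetal arrays (embryonic day 16) entered 1 alternative fit and are otherwise described only in the closing section.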

Additional observations from a re-analysis of the deposited data

Results flagged for a closer look

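In 7 of 116 groups of arrays examined, the highest or lowest array lay far from the others, by its gap to the nearest array as a share of the whole range. Chance flags about 1 in 20 groups. Among the low-numbered arrays, Sca-1Lo replicate 1 was lowest for *Odf3* (a share of 0.876) and Sca-1Hi replicate 1 for *Radil* (0.73). Among the high-numbered arrays, Sca-1Neg replicate 4 had the highest mean log2 signal of the nerve and Schwann (0.783), macrophage (0.65) and erythroid (0.633) lists. Sca-1Neg replicate 3 was highest for the endoplasmic reticulum stress list (0.654) and Sca-1Hi replicate 2 for *Krtdap* (0.656).

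The difference between the sets was not the same in Sca-1Lo and Sca-1Neg for 5 genes by the interaction test. The contrast was −7.66 for *Xcl1*, −7.03 for *Klre1*, −6.51 for *Cd209a*, −6.31 for *Hcls1* and −6.17 for *Nkg7*, each with its excess in low-numbered Sca-1Neg. Those of *Cd209a* and *Hcls1* rest in part on signals under 20.

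Control probe sets, which no comparison of genes used, differed between the sets. The largest difference was that of a thr poly-A control, −8.06 on the log2 scale. Its part in the differences between genes was not tested.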

How the results depend on the processing

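Counts of 2277 probe sets higher and 5213 lower became 5964 and 1720 with 75th percentile centring, 1510 and 2850 with the methods' t-test without the gate, 3631 and 8131 with no fold minimum, 1024 and 1986 without study number 2, and 0 and 0 in limma with the *Gapdh* ratio, where 4401 had an unadjusted p under 0.05. Adding 16 before log2 left 1132 higher, and quantile normalization 2876 lower. With study number as a random block, 2219 were higher and 5131 lower. With 1 array left out, 1803 to 2905 were higher and 3602 to 6641 lower. The 9 gate contrasts became 3 with no filter, 24 with 16 added, 24 with fetal arrays in the fit, 15 with study number as a block, 2 with the *Gapdh* ratio, 4 with the *Actb* ratio and 0 to 4831 with 1 array left out. By gene, 5 became 14 with the mean of a gene's probe sets. The causes of these changes were not tested.

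Residual correlations between arrays of different gates ran from −0.374 to 0.201 where the label number was the same. Between arrays of 1 set with different label numbers they ran from −0.591 to 0.338, so whether arrays pair was not settled. Label number 2 joins arrays of study numbers 2 and 3. With the label number as a replicate block, 2267 were higher, 5203 lower and 11 gate contrasts were called, and all 107 called genes named kept their call. Of these, 70 kept it after quantile normalization, 79 after centring, 101 with the *Actb* ratio and 0 with the *Gapdh* ratio. Directions turned for *Egln3* (0.023 with the *Gapdh* ratio), *Ngfr* (0.06) and *Nr4a3* (0.009) with the mean of probe sets, and *Sox10* (−0.26), which was −1.11 to 1.14 with 1 array left out, the latter without Sca-1Neg replicate 4, 1.20 without study number 5 and 0.89 without the Sca-1Neg arrays. Signals near 20 limit what can be said of dim genes.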

Other observations

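The 3 fetal UGE arrays were in neither set and also differed in their controls. The *dap* 3′ poly-A control was 65.6 on UGE replicate 1, 7067 on UGE replicate 2 and 3051 on UGE replicate 3. Of the 927 genes called higher in the low-numbered adult set, 82.5% were higher on UGE replicate 1 than on both other UGE arrays, against 36.5% of all genes. Of the 1957 called lower, 69.9% were lower on UGE replicate 1 than on both others, against 42.8% of all genes. The median log2 difference of UGE replicate 1 from the mean of the others was 0.93 for the genes called higher, −0.44 for those called lower and −0.06 for all genes. *Boll* was 1384, 57.0 and 406 on UGE replicates 1 to 3, and *Flt3* was 128, 11.4 and 75.6. *Cd22* was 342, 54.6 and 152, *Fcer1a* 67.5, 15.0 and 23.9, and *Ms4a2* 40.9, 6.96 and 10.5. *H2-Ab1* was 57.4, 70.5 and 47.7. All of these are values of single arrays, with no test.

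*Alas2*, the erythroid enzyme of heme synthesis, was 4561 and 8846 in low-numbered Sca-1Neg, 744 and 2582 in high-numbered Sca-1Neg and 127 to 339 on the Sca-1Hi and Sca-1Lo arrays, and did not pass the test between the sets (0.48, adjusted p = 0.536).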
